A study of Mus musculus with 9 samples.

Results

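The amino acid transporters described here were the 60 genes, of 46095 symbols in the count table, whose symbol is *Slc1a*, *Slc3a*, *Slc6a*, *Slc7a*, *Slc36a*, *Slc38a* or *Slc43a* followed by a number and nothing else. The rule uses the symbol alone, although it was set with earlier results of these data known. RNA-seq was performed on intestinal epithelial cells (IECs) from the colon of 4 Smad4-knockout mice (libraries S-1 to S-4) and 5 Smad4-knockout;Setd2-knockout mice (DDKO-1 to DDKO-5). Both genotypes lack *Smad4*, a mediator of TGF-β and BMP signalling, so that the comparison asks what the added loss of *Setd2*, a histone methyltransferase, is accompanied by in a *Smad4*-deleted epithelium. The floxed alleles were deleted by Cre under the Villin promoter, which is active in the intestinal epithelium and leaves both genes intact in other cells. All 9 mice, on a C57BL/6j background with littermates as controls, had been injected with AOM, a carcinogen, at 10 mg/kg at 8 weeks of age and had drunk 2% DSS, which injures the colonic epithelium. IECs were released with EDTA at 10 days, after 1 cycle. The age at collection and the sex of the mice were not given in the sources used here.

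Amino acids cross an epithelial cell in steps. Carriers of the brush border take them up from the lumen with sodium, protons or in exchange for other amino acids, and carriers of the basolateral membrane pass them on to the blood. Several of these carriers are pairs, in which a heavy chain (*Slc3a1* or *Slc3a2*) is linked to a light chain of the *Slc7a* family that does the transport. Absorption of dietary amino acids is mainly a task of the small intestine, while carriers of the colon largely serve the cell's own supply and the recovery of what reaches it.

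The total count per library was 12487129 to 17120202, and a single count was worth 0.0594 to 0.0794 CPM (the count relative to the library's total, with TMM factors applied). *Setd2* was 113 ± 9.45 CPM (SD, n = 4) in S and 66.1 ± 14.7 CPM (n = 5) in DDKO libraries (log2 fold change -0.77, edgeR quasi-likelihood adjusted p = 0.00756). *Smad4* was 64.2 ± 19.0 and 70.3 ± 34.4 CPM (adjusted p = 0.819), a total over the gene that does not separate the floxed exons from the rest. Y-linked genes had 0 or 1 count in each S library, 0 and 28 in DDKO-4 and DDKO-3, and 3857 to 4907 in DDKO-1, DDKO-2 and DDKO-5. The first principal component placed DDKO-5, at 4.11, nearest to the S libraries (-47.8 to -36.0), with the other DDKO libraries between 22.5 and 55.0. Summed markers of epithelium were 16656 to 18759 CPM in S and 14659 to 17669 CPM in DDKO libraries, and those of leukocytes 76.9 to 207 CPM over all 9, and none of the 10 and 16 markers tested passed the threshold. Markers of stroma and muscle summed to 23.1 to 41.3 and 32.0 to 72.1 CPM (0 of 6 tested changed), and those of enteroendocrine cells to 81.1 to 109 and 174 to 261 CPM (5 of 9 higher).

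Of the 60 genes, 53 had at least 1 count and 36 passed the filter on low counts and were tested. In the 14593 genes tested, 13.3% had an adjusted p under 0.05, 6.76% higher and 6.54% lower in DDKO libraries. Among the 36 tested transporters, 14 passed (38.9%), with 9 higher and 5 lower. The log2 fold change had a median of 0.20 over the tested transporters, where that of all tested genes was -0.0006. Of these 36, 5 transporters (*Slc6a19*, *Slc7a2*, *Slc7a8*, *Slc7a15* and *Slc38a11*) did not reach the minimum of 0.697 CPM in all 4 S libraries, and 4 of them were among the 9 higher genes. *Slc1a3*, 1 of the 5 lower genes, reached it in all 4 S libraries but in 1 DDKO library. These 6 genes entered the test through the genotype in which they were higher. The other 30 reached the minimum in all 9 libraries, and of these 5 were higher and 4 lower. Without S-1, S-3 or DDKO-4, the number of transporters past the threshold was 8, 7 and 9. The libraries of the genotypes did not overlap for 7 of the 36 transporters above and 5 below, against 8.34% and 8.87% of all tested genes. These include *Slc6a19* and *Slc38a11* above and *Slc1a3* below, which entered the test through the genotype in which they were higher. Because IECs were sequenced in bulk, fewer cells that express a carrier and less RNA of it per cell cannot be told apart.

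**Figure D1:**
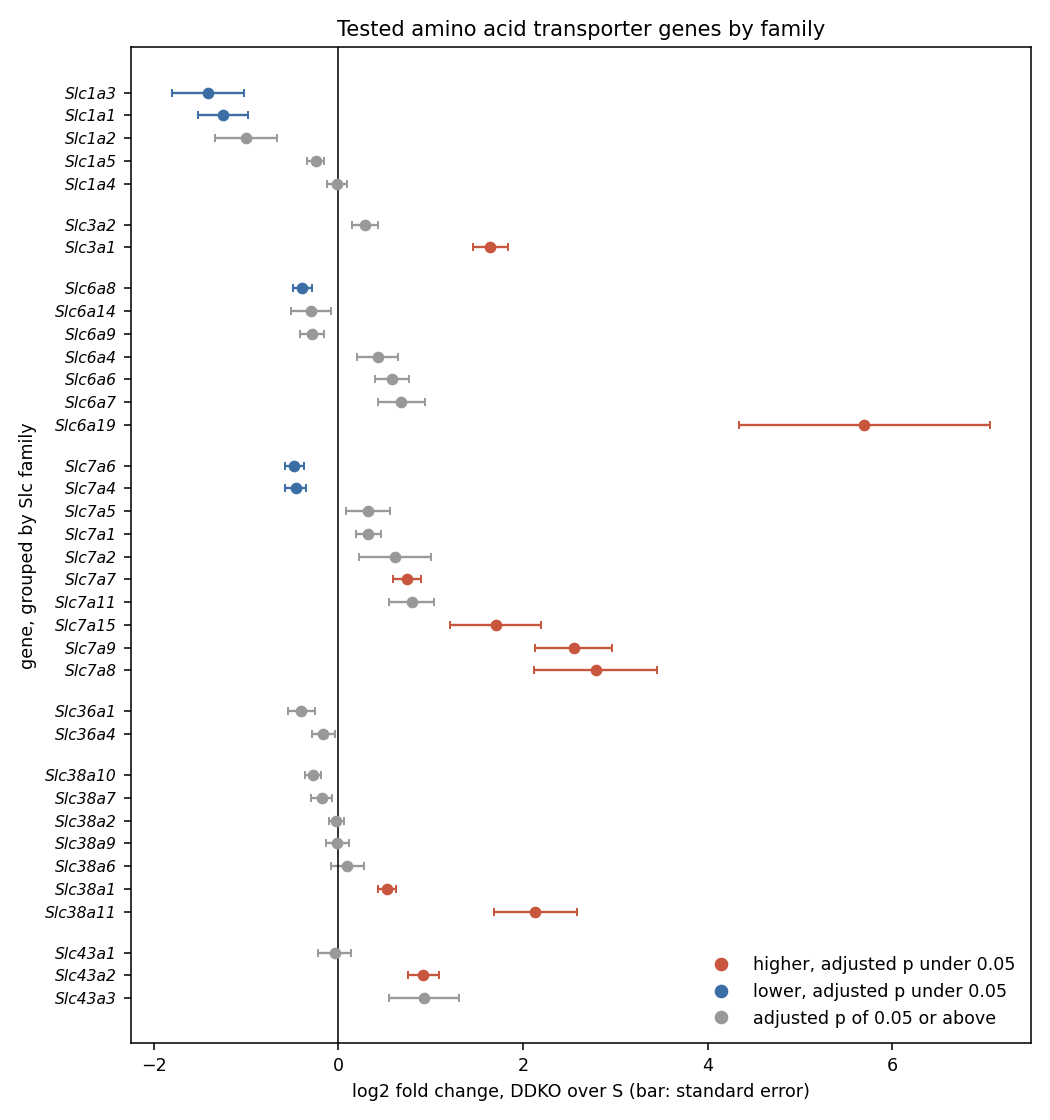
Log2 fold change of DDKO over S libraries (horizontal axis) for the 36 tested transporter genes (vertical axis), grouped by *Slc* family, with bars for the standard error and colours for the 9 higher, 5 lower and 22 other genes. The widest changes were in *Slc6a19* (5.70), *Slc7a8* (2.79) and *Slc7a9* (2.55), and both lower members of the *Slc1* family stand to the left of 0.

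By family, the *Slc7* genes held 6 of the 14 changed genes (4 higher and 2 lower of 10 tested). Their summed level was 181 to 208 CPM in S and 212 to 347 CPM in DDKO libraries. The *Slc1* family had 2 lower of 5 tested, *Slc3* 1 higher of 2, *Slc6* 1 higher and 1 lower of 7, *Slc38* 2 higher of 7 and *Slc43* 1 higher of 3. Neither tested *Slc36* gene passed. All members together made up 0.254% to 0.307% of the counts of a library, with overlapping sums of 2609 to 2802 CPM in S and 2629.6 to 3018 CPM in DDKO libraries.

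*Slc6a19*, *Slc3a1* and *Slc7a9*, 3 genes of the brush border grouped without a fixed list, rose in DDKO libraries. Not all carriers of absorptive epithelia did. *Slc15a1*, also of the brush border, did not pass the test (log2 fold change -0.24, adjusted p = 0.608), and *Slc1a1* was lower (log2 fold change -1.25, adjusted p = 0.0152). *Slc6a19* encodes the main sodium-coupled carrier for neutral amino acids of the small intestinal brush border (chr13:73679745-73704865, mm10). It had 0.449, 0.535, 0.123 and 0.397 CPM in S-1 to S-4 and 32.4, 60.3, 2.59, 3.30 and 0.853 CPM in DDKO-1 to DDKO-5. All DDKO libraries lay above all S libraries, but DDKO-1 and DDKO-2 stood far above the other 3, and DDKO-5, with 11 counts, was close to the S range of 2 to 9 counts. The log2 fold change was 5.70 with a standard error of 1.36 (adjusted p = 0.0215). With a term for Y-linked counts it was 2.94 (adjusted p = 0.183), and in the 6 libraries with at most 100 such counts (the S libraries, DDKO-3 and DDKO-4) 2.95 (adjusted p = 0.00274). Without any 1 of the S libraries the adjusted p was 0.0558 to 0.0763.

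*Slc3a1* and *Slc7a9* encode the heavy and the light chain of the brush border exchanger for cystine and cationic amino acids, whose loss in humans causes cystinuria. *Slc3a1* (chr17:85028376-85064236) had 34.9, 33.4, 32.4 and 28.3 CPM in the S libraries and 88.3, 137, 104, 112 and 64.3 CPM in the DDKO libraries. Its lowest DDKO library, DDKO-5, still stood above every S library, and the log2 fold change was 1.65 ± 0.188 (SE, adjusted p = 0.000688). *Slc7a9* (chr7:35448796-35466036) had 3.40, 7.61, 6.76 and 7.94 CPM in S and 46.7, 51.4, 25.7, 51.4 and 12.6 CPM in DDKO libraries, again with DDKO-5 lowest and without overlap (log2 fold change 2.55 ± 0.416, adjusted p = 0.00394). The ratio of *Slc7a9* to *Slc3a1* counts within a library was 0.0974 to 0.280 in S and 0.195 to 0.528 in DDKO, so that the chains rose in proportions that overlapped between the genotypes. Per kb of transcript, the levels rose from 14.2 to 44.5 CPM/kb for *Slc3a1* and from 3.31 to 19.3 CPM/kb for *Slc7a9*. An exon of *Prepl* on the opposite strand shares up to 601 bp with *Slc3a1*, and *Prepl* had 68.9 CPM in S and 64.4 CPM in DDKO libraries (adjusted p = 0.614).

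Promoter windows, from 250 bases before to 50 after the annotated start, were searched on both strands for TGATGNAA, the core of the C/EBP-ATF element of amino acid response genes, and for CAAAGTCCA, a site of the HNF4 type, found in front of many absorptive genes. Windows of RefSeq (GRCm38.p6) were found for 42 of the 60 genes. The first motif occurred in 3.97% of all 32851 windows and in 4 of the 63 windows of the transporters (1 of *Slc1a4*, 1 of *Slc7a11* and 2 of *Slc7a7*, the second of which belongs to another annotated start), and the second in 0.475% of all windows and among the transporters in that of *Slc3a1*. The following 60 bases of each gene that rose or narrowly missed the threshold are shown because they place the match relative to the start, with the motif in capitals and the sequence on the gene's strand. They lie at chr17:85028282-85028341 for *Slc3a1* (plus strand, the match 39 bases before the start), chr14:54418052-54418111 for *Slc7a7* (minus strand, 141 bases before the most upstream of its annotated starts) and chr3:50443646-50443705 for *Slc7a11* (minus strand, 66 bases). Starts are those of RefSeq, and that of *Slc3a1* is not the first base of the gene coordinates given above.
Slc3a1: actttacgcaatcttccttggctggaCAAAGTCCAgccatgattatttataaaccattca
Slc7a7: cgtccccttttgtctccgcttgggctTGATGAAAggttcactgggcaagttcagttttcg
Slc7a11: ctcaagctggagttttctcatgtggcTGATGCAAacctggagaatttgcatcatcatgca
The *Slc7a11* run holds a second match on the opposite strand, 47 bases before the start. Whether a factor binds at these letters was not measured here.

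**Figure D2:**
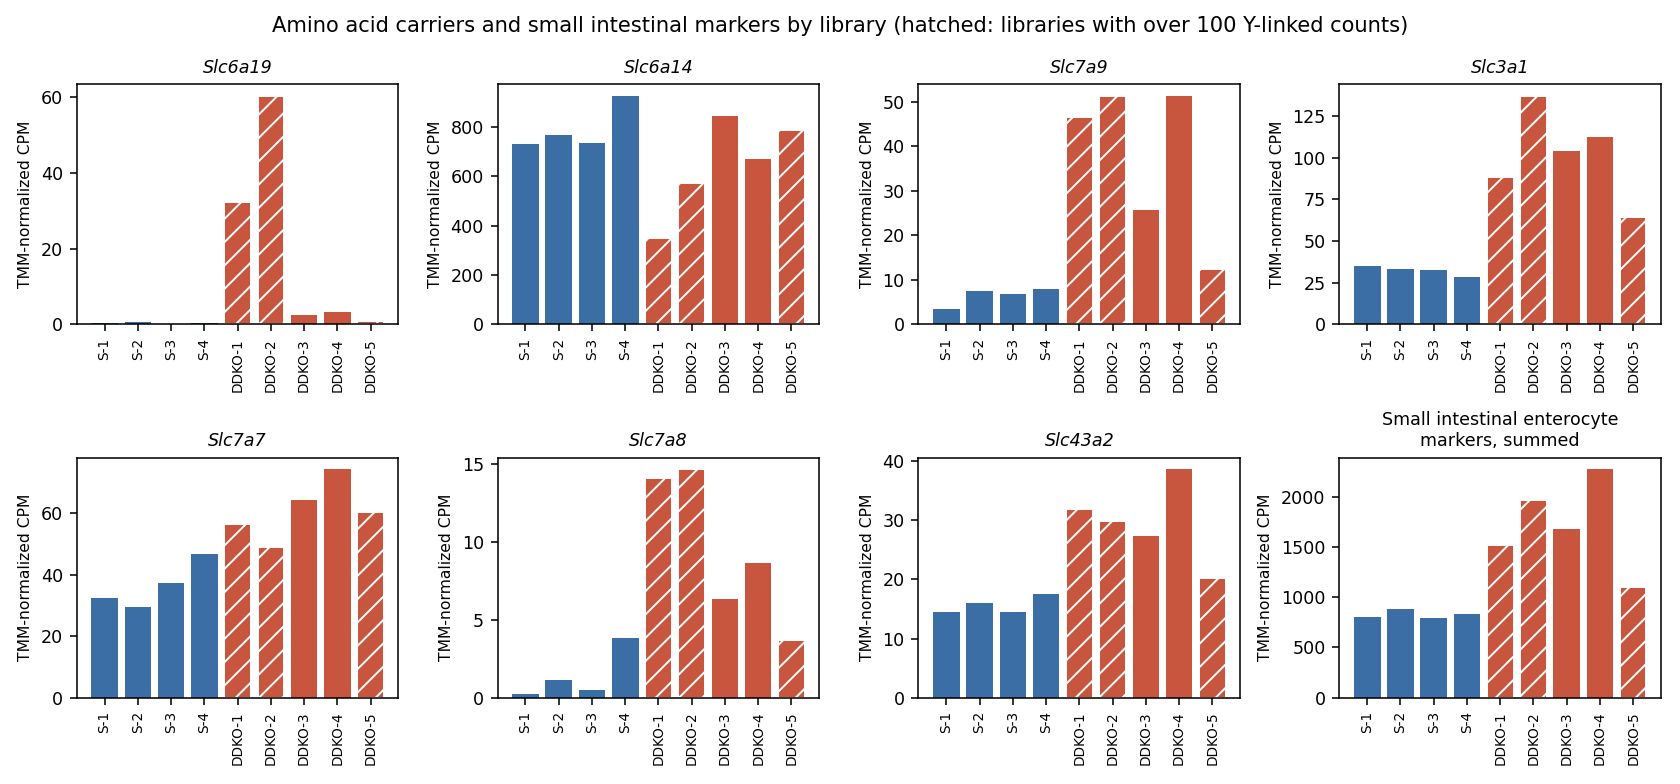
CPM (vertical axis, linear from 0) in each of the 9 libraries (horizontal axis) for 7 carriers and the summed small intestinal enterocyte markers, with hatching for the 3 libraries with over 100 Y-linked counts. *Slc6a19* is concentrated in DDKO-1 (32.4 CPM) and DDKO-2 (60.3 CPM), while *Slc3a1* is above every S library in all 5 DDKO libraries (64.3 CPM or more).

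Several other markers of small intestinal enterocytes were also higher in DDKO libraries. Of 18 listed, 14 were tested, and 10 of them were higher and none lower in DDKO libraries. Of all tested genes, 6.76% were higher. Some of the 10, such as *Apoa1* and *Fabp1* (at most 0.178 CPM in an S library), entered the test only through the DDKO libraries. The summed level of the listed markers was 788 to 883 CPM in S and 1099 to 2274 CPM in DDKO libraries, with DDKO-5 lowest among the latter. It was highest in DDKO-4, where *Slc6a19* had 3.30 CPM, against 60.3 CPM in DDKO-2. *Apoa1* and *Apoa4*, apolipoproteins of small intestinal enterocytes, had 0 counts in all 4 S libraries, and *Apoa1* had 39.2, 26.04, 1.40, 16.3 and 0.155 CPM in DDKO-1 to DDKO-5. Markers of colonocytes summed to 8336 to 10235 CPM in S and 5512 to 10910 CPM in DDKO libraries, with 1 higher and none lower of 13. The part of cell composition in the rise of *Slc6a19*, *Slc3a1* and *Slc7a9* was not tested.

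Carriers of the basolateral side were grouped here without a fixed list, so that those named are not all of them. Of those named, *Slc7a7*, *Slc7a8* and *Slc43a2* were higher, *Slc7a6* was lower, and *Slc3a2* and *Slc43a1* did not pass the test. *Slc7a7*, the light chain that with *Slc3a2* exports cationic amino acids in exchange for sodium and neutral ones, had 32.3, 29.4, 37.5 and 46.8 CPM in S and 56.6, 49.0, 64.3, 74.5 and 60.5 CPM in DDKO libraries. No DDKO library fell below an S library, although S-4 and DDKO-2 were separated by little (log2 fold change 0.74 ± 0.153, adjusted p = 0.0117). Up to 232 bp of its exons lie opposite to exons of *Oxa1l*, which had 66.6 CPM in S and 63.9 CPM in DDKO libraries (adjusted p = 0.613). *Slc7a6*, the related light chain that is expressed in many tissues, went the other way, from 28.1, 29.2, 29.1 and 25.2 CPM in S to 21.2, 19.1, 21.95, 16.99 and 21.1 CPM in DDKO libraries, again without overlap (log2 fold change -0.47 ± 0.103, adjusted p = 0.0147). The adjusted p of *Slc7a6* was 0.0547 without S-3. The ratio of *Slc7a6* to *Slc7a7* counts was 0.538 to 0.994 in the S libraries and 0.228 to 0.391 in the DDKO libraries.

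*Slc7a8*, the light chain of a basolateral exchanger of neutral amino acids, was low in the S libraries, at 0.257, 1.13, 0.491 and 3.81 CPM, and had 14.1, 14.7, 6.29, 8.65 and 3.72 CPM in the DDKO libraries. S-4 stood above the other S libraries and slightly above DDKO-5, so that the groups overlapped (log2 fold change 2.79 ± 0.670, adjusted p = 0.0221). The call was lost without S-1, S-2 or S-3, and with a term for Y-linked counts (log2 fold change 2.45, adjusted p = 0.0794). Without S-4 the log2 fold change was 3.89 (adjusted p = 0.00740). *Slc43a2*, a facilitative carrier that lets branched-chain amino acids and phenylalanine out of the cell, had 14.6, 16.0, 14.5 and 17.5 CPM in S and 31.9, 29.96, 27.4, 38.7 and 20.2 CPM in DDKO libraries (log2 fold change 0.92 ± 0.167, adjusted p = 0.00648). All 5 DDKO libraries exceeded the S libraries, with DDKO-5 nearest to them. Its relative *Slc43a1* did not pass the test, with 6.92 ± 0.858 CPM in S and 6.74 ± 1.29 CPM in DDKO libraries.

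The heavy chain *Slc3a2*, which serves *Slc7a5*, *Slc7a6*, *Slc7a7*, *Slc7a8* and *Slc7a11*, had 59.2, 55.0, 59.6 and 61.8 CPM in S and 87.8, 86.0, 62.1, 70.5 and 53.7 CPM in DDKO libraries. DDKO-5 was below the S range and the other 4 DDKO libraries above it, DDKO-3 by little (log2 fold change 0.29 ± 0.139, adjusted p = 0.183). *Slc7a5*, the leucine exchanger of growing cells, had 18.3 to 22.2 CPM in S and 17.1 to 42.2 CPM in DDKO libraries, the highest value being that of DDKO-1 (log2 fold change 0.32, adjusted p = 0.382). With a term for Y-linked counts its log2 fold change was -0.02. *Slc7a11*, which takes up cystine in exchange for glutamate, had 13.3, 19.0, 20.8 and 26.9 CPM in S and 46.2, 22.3, 38.7, 40.3 and 25.7 CPM in DDKO libraries (log2 fold change 0.80 ± 0.245, adjusted p = 0.0544). DDKO-2 and DDKO-5 lay below S-4. *Slc7a11* passed under 7 of 17 alternatives, with adjusted p-values from 0.0106 (DESeq2) to 0.137 (without S-1).

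*Slc7a15*, a light chain that is functional in mice, was near the limit of detection, with 0.192 to 0.476 CPM in S and 1.41, 1.21, 0.979, 1.81 and 0.310 CPM in DDKO libraries. DDKO-5 was within the S range, and the log2 fold change was 1.71 ± 0.490 (adjusted p = 0.0433). The call was lost under 6 of the 12 alternatives in which the gene was tested, the omission of any S library among them. *Slc7a10*, *Slc7a12* and *Slc7a13* had no count in any library.

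**Figure D3:**
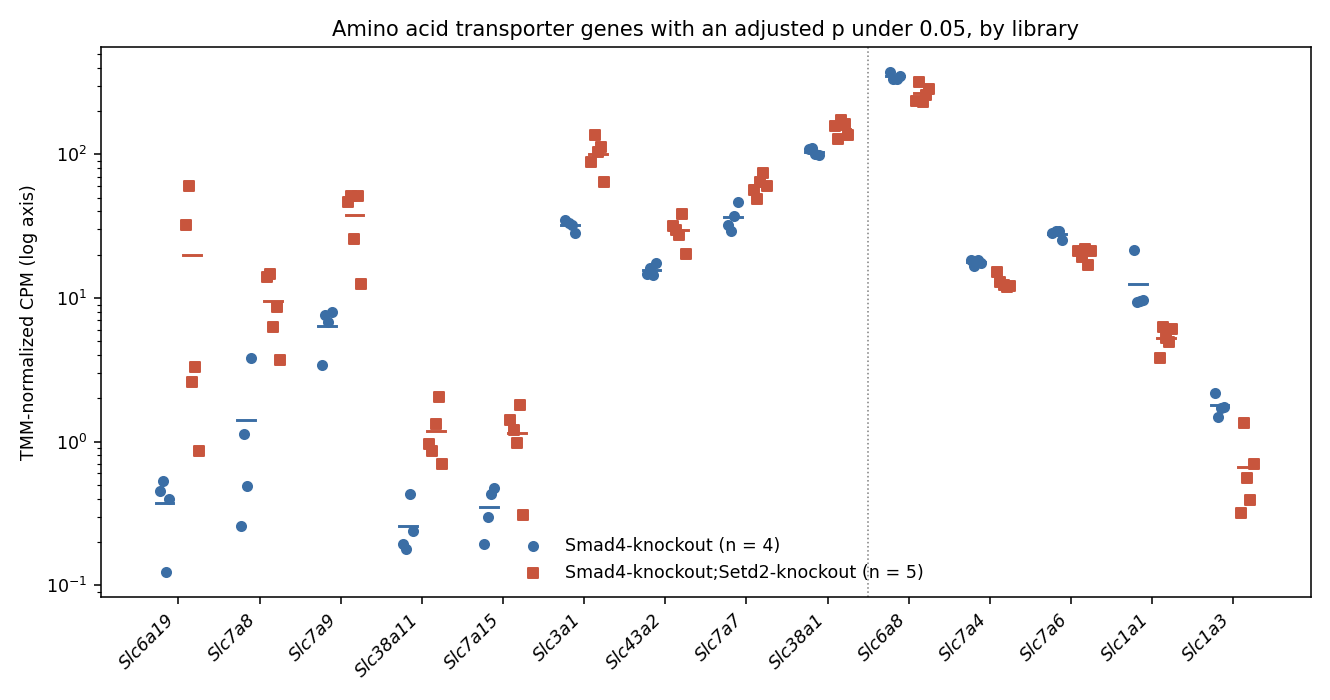
CPM (vertical axis, log scale) of the 14 transporter genes with an adjusted p under 0.05 (horizontal axis), with 1 point for each of 4 S and 5 DDKO libraries. The points of the genotypes overlap for *Slc7a8* and *Slc7a15*, and *Slc6a19* spans 0.853 to 60.3 CPM among the DDKO libraries.

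Among the cationic carriers that act alone, 1 of 3 tested was lower and none higher. *Slc7a1*, which imports arginine and lysine in most cells, had 65.2, 72.1, 60.4 and 59.8 CPM in S and 100.1, 85.4, 77.5, 82.8 and 57.6 CPM in DDKO libraries, where DDKO-5 lay below the S libraries and the other 4 above (log2 fold change 0.33 ± 0.138, adjusted p = 0.138). *Slc7a4*, assigned to the cationic carriers by sequence, was lower, with 18.3, 16.7, 18.5 and 17.6 CPM in S and 15.3, 12.9, 12.2, 11.95 and 12.2 CPM in DDKO libraries. The groups did not overlap, DDKO-1 being the nearest to the S range (log2 fold change -0.46 ± 0.110, adjusted p = 0.0215). The call was lost without S-1, S-3, S-4 or DDKO-4 (adjusted p of up to 0.0738). *Slc7a3*, named here after its values were seen, did not pass the filter on low counts, with 1 to 6 counts in the S libraries and 21, 18, 8, 14 and 5 counts in the DDKO libraries. It passed the threshold when tested without the filter. It also passed when S-4 was left out, where it entered the test only through the DDKO libraries.

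Of the 3 glutamate carriers tested, 2 were lower in DDKO libraries. *Slc1a1*, the sodium-coupled glutamate and aspartate carrier of absorptive epithelia (chr19:28835049-28913960), had 21.4, 9.33, 9.52 and 9.69 CPM in S and 3.85, 6.26, 5.24, 4.95 and 6.05 CPM in DDKO libraries. S-1 had more than any other library, and the other 3 S libraries still lay above all DDKO libraries (log2 fold change -1.25 ± 0.273, adjusted p = 0.0152). Without S-1 the log2 fold change was -0.85 (adjusted p = 0.0270), and with a term for Y-linked counts -1.29 (adjusted p = 0.0662). *Slc1a3*, a glutamate carrier best known from astrocytes, was low in both genotypes, with 2.18, 1.49, 1.72 and 1.75 CPM in S and 0.320, 1.35, 0.559, 0.393 and 0.698 CPM in DDKO libraries (log2 fold change -1.41 ± 0.391, adjusted p = 0.0375). DDKO-2 came close to S-2, and the call was lost under 9 of the 16 alternatives in which the gene was tested, the omission of any S library and of DDKO-1, DDKO-3 or DDKO-4 among them. *Slc1a2*, the third glutamate carrier tested, had 1.84 ± 0.824 and 0.926 ± 0.229 CPM (log2 fold change -0.99, adjusted p = 0.0750).

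Markers of enteric neurons and glia, cells in which glutamate carriers are also found, summed to 3.99 to 5.59 CPM in S and 4.47 to 7.40 CPM in DDKO libraries, with 1 of 3 tested higher, none lower and *Sox10* at 0 in all libraries. Goblet cell markers, of which 1 of 7 was lower, summed to 31079 CPM in S-1, 11902 to 15436 CPM in the other S libraries and 4362 to 13634 CPM in DDKO libraries. S-1 was thus the highest library for both *Slc1a1* and goblet markers, and the part of goblet cells in the difference of *Slc1a1* was not tested.

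The neutral exchangers of the same family did not pass the test. *Slc1a5*, which imports glutamine, had 165 to 227 CPM in S and 158 to 181 CPM in DDKO libraries (log2 fold change -0.24 ± 0.0937, adjusted p = 0.109). *Slc1a4*, an exchanger of serine and alanine, had 55.4 to 72.0 and 51.0 to 71.8 CPM (log2 fold change -0.02, SE 0.111, adjusted p = 0.943). 

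Of the 7 tested genes of the *Slc38* family, which includes the sodium-coupled system A and N carriers, 2 were higher and none lower. *Slc38a1*, which takes up glutamine and other small neutral amino acids, had 108, 110.4, 101 and 98.4 CPM in S and 158, 128, 172, 162 and 136 CPM in DDKO libraries. The increase was moderate and seen in all 5 DDKO libraries (log2 fold change 0.53 ± 0.0973, adjusted p = 0.00685). *Slc38a11* had 0.178 to 0.430 CPM in S and 0.961, 0.854, 1.33, 2.04 and 0.698 CPM in DDKO libraries. These few counts did not overlap (log2 fold change 2.13 ± 0.448, adjusted p = 0.0126). The gene reached the minimum of the filter in 0 S libraries, and so entered the test only through the DDKO libraries. *Slc38a2*, the system A carrier that cells induce when amino acids are short, was among the most abundant members at 229 ± 11.2 CPM in S and 226 ± 20.1 CPM in DDKO libraries (log2 fold change -0.02 ± 0.0822, adjusted p = 0.889). The 4 other tested members of this family had log2 fold changes from -0.28 to 0.10. The lowest was that of *Slc38a10*, which narrowly missed the threshold (log2 fold change -0.28 ± 0.0841, adjusted p = 0.0533). It had 149, 129, 143 and 135 CPM in S and 112, 106, 107, 117 and 133 CPM in DDKO libraries. Only DDKO-5 reached the S range. *Slc38a10* passed with DESeq2, with limma-voom, without DDKO-5, and when DDKO-1, DDKO-2 and DDKO-5 were all omitted, and missed under the other alternatives. *Slc38a3* did not pass the filter, and had 15 and 24 of its 46 counts in DDKO-1 and DDKO-2, libraries in which *Slc6a19* was also highest. It too was named after its values were seen.

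The most abundant transporter was *Slc6a14*, a sodium- and chloride-coupled carrier of neutral and cationic amino acids known from the colon. Per kb of transcript it had 230 CPM/kb in S and 188 CPM/kb in DDKO libraries, and it took 13.2% to 33.0% of the counts of all transporters. In CPM it had 732, 767, 736 and 925 in S and 349, 572, 845, 671 and 788 in DDKO libraries, with DDKO-1 and DDKO-2 lowest and the others within or near the S range (log2 fold change -0.29 ± 0.214, adjusted p = 0.377). DDKO-1 and DDKO-2 were thus the lowest libraries for this colonic carrier and the highest for *Slc6a19*. The gene is on the X chromosome, and with a term for Y-linked counts its log2 fold change was -0.06.

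*Slc6a8*, the X-linked creatine transporter and the second in level per kb of the S libraries, was 372, 336, 334 and 351 CPM in S and 234, 319, 232, 260 and 287 CPM in DDKO libraries. DDKO-2 came nearest to the S range without reaching it (log2 fold change -0.39 ± 0.103, adjusted p = 0.0329). The call was lost under 8 of the 17 alternatives that use the adjusted p, the omission of any S library or of DDKO-1, DDKO-3 or DDKO-4 among them (adjusted p of up to 0.0928), and with a term for Y-linked counts the log2 fold change was -0.50 (adjusted p = 0.0401). *Slc6a6*, the taurine transporter, had 225, 243, 232 and 208 CPM in S and 455, 429, 267, 306 and 243 CPM in DDKO libraries. DDKO-1 and DDKO-2 were again apart from the rest, and the adjusted p was 0.0568 (log2 fold change 0.58 ± 0.181). *Slc36a1*, the proton-coupled carrier of small neutral amino acids, had 94.8 to 117 CPM in S and 61.3 to 102 CPM in DDKO libraries (log2 fold change -0.40 ± 0.145, adjusted p = 0.0931).

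**Figure D4:**
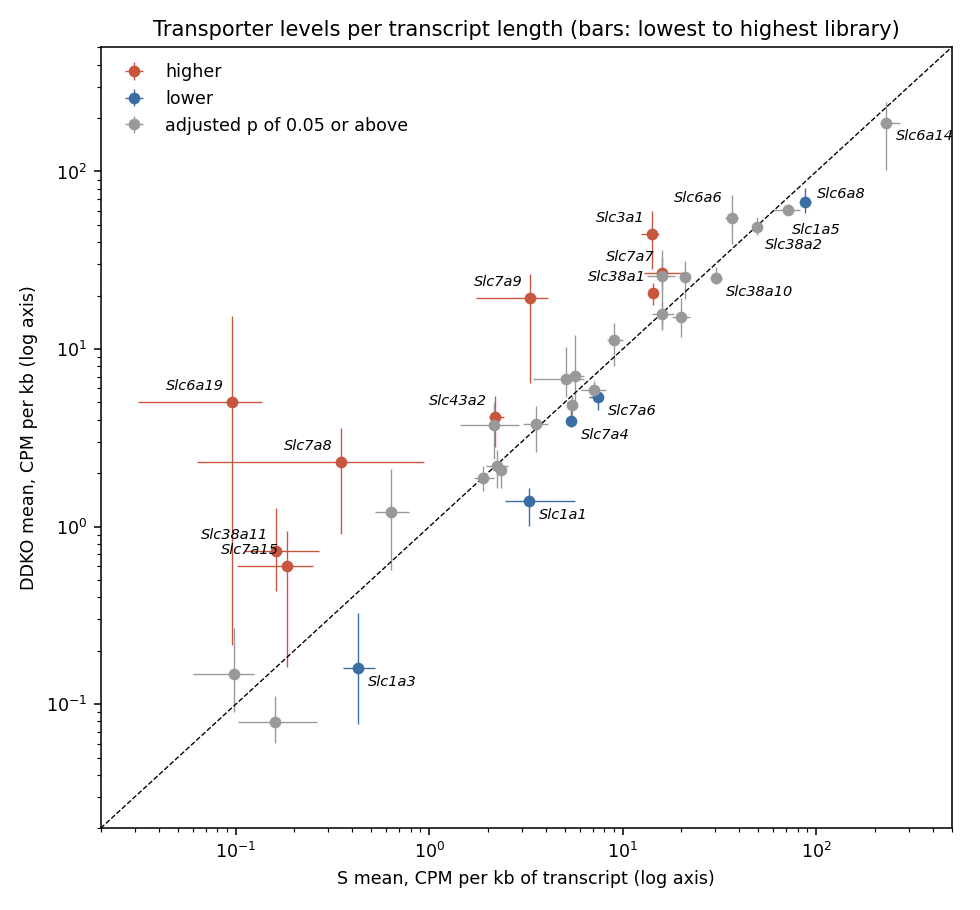
Mean level of the 36 tested transporters per kb of the longest annotated transcript, S libraries on the horizontal and DDKO libraries on the vertical axis (both log scales), with bars from the lowest to the highest library and a dashed line of equal levels. Among these, *Slc6a14* (230 and 188 CPM/kb) is highest in both genotypes, and *Slc6a19*, *Slc7a8* and *Slc7a9* lie farthest above the line.

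In the order of levels per kb, *Slc6a14* was followed in the S libraries by *Slc6a8* (87.9 CPM/kb), *Slc1a5* (71.5), *Slc38a2* (49.2) and *Slc6a6* (36.7). In the DDKO libraries *Slc6a8* (67.2 ± 9.27 CPM/kb, SD), *Slc1a5* (60.4 ± 3.27) and *Slc6a6* (55.0 ± 15.6) came next by mean, and *Slc3a1* (44.5 ± 11.9) was close to *Slc38a2* (48.5 ± 4.31). Differences between genes were not tested. *Slc3a1* moved from place 13 to place 6 in this order and *Slc7a9* from 22 to 12, while *Slc6a19* had 0.0955 CPM/kb in S and 5.05 ± 6.64 CPM/kb in DDKO libraries.

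The 24 transporters that were not tested had at most 78 counts over the 9 libraries. Of these, 7 had none (*Slc1a7*, *Slc6a5*, *Slc6a16*, *Slc7a10*, *Slc7a12*, *Slc7a13* and *Slc36a3*), 10 had 1 to 9 and 7 had at least 10. *Slc6a17*, a carrier of neutral amino acids in synaptic vesicles, had 4, 8, 5 and 1 counts in S and 0, 0, 0, 1 and 1 counts in DDKO libraries, and did not pass the threshold when tested without the filter.

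Genes that work beside the transporters were given by a second list of 50, of which 44 were tested, with 4 higher and 1 lower (11.4%, near the 13.3% of all tested genes). Of the higher genes, 3 are described here. Of 14 tested related carriers, 1 was higher. This was *Slc25a15*, the mitochondrial ornithine carrier, with 38.8, 46.8, 39.2 and 39.2 CPM in S and 84.4, 75.1, 65.6, 74.6 and 62.0 CPM in DDKO libraries (log2 fold change 0.82 ± 0.107, adjusted p = 0.00128). All DDKO libraries were above all S libraries. The peptide transporter *Slc15a1*, a carrier of the small intestinal brush border like *Slc6a19*, had 51.4 to 107 CPM in S and 41.7 to 110.4 CPM in DDKO libraries and was not higher (log2 fold change -0.24, adjusted p = 0.608).

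Of 15 tested genes of the response to amino acid starvation, none was higher and 1 lower. *Pycr1*, the enzyme of the last step of proline synthesis, had 14.9, 10.3, 9.70 and 9.21 CPM in S and 4.61, 5.12, 6.64, 4.95 and 8.61 CPM in DDKO libraries (log2 fold change -0.88 ± 0.222, adjusted p = 0.0262). Its call was lost without S-1, S-2, S-3, DDKO-2 or DDKO-4, and with a term for Y-linked counts (log2 fold change -0.93, adjusted p = 0.0908). *Atf4*, the transcription factor of this response, had log2 fold change -0.03 (adjusted p = 0.809), and *Asns*, asparagine synthetase and a target of it, 0.05 (adjusted p = 0.890). Among 12 tested genes of amino acid sensing by mTORC1, 2 were higher. *Castor2* (listed as *Gatsl2*), a relative of the arginine sensor *Castor1*, had 0.770, 1.43, 1.41 and 1.83 CPM in S and 6.09, 5.91, 7.48, 5.90 and 3.33 CPM in DDKO libraries (log2 fold change 2.08 ± 0.303, adjusted p = 0.00230). *Castor1* itself (listed as *Gatsl3*) did not pass the test (log2 fold change 0.31, adjusted p = 0.538). *Sesn1*, of the leucine-sensing sestrins, had 9.63 to 11.4 CPM in S and 13.3 to 18.4 CPM in DDKO libraries, with no overlap (log2 fold change 0.54 ± 0.134, adjusted p = 0.0247), and missed the threshold without any 1 of the S libraries, DDKO-3 or DDKO-4 (adjusted p of up to 0.0752).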

How the data were processed

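RNA of IECs was sequenced from 4 Smad4-knockout and 5 Smad4-knockout;Setd2-knockout mice. The deposited values are raw read counts, 1 row per gene symbol and 1 column per mouse, which the authors had neither normalized nor pooled. The submitters' processing notes name HISAT2 2.0 and mm10. The counting program, the annotation and the use of strand are not given in the sources used here, and reads of near-identical or overlapping genes may be split. Of the symbols, 27 had been turned into dates, and these rows were kept without a name. Replicates of a genotype differed well beyond counting noise (16 pairs, lowest chi-square per gene 9.92), and all 9 libraries were kept.

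Genes were filtered with filterByExpr of edgeR 4.0.16 (R 4.3.3) by genotype, normalized with TMM and tested with edgeR's quasi-likelihood test over all 9 libraries without covariates, with Benjamini-Hochberg adjustment over 14593 genes and a threshold of 0.05. Standard errors were derived from each log2 fold change and its F statistic. The biological coefficient of variation was 21.2%. The libraries are from separate mice as the labels name them, without further information on cages or days. The test was run on simulated counts beforehand. Alternatives were DESeq2 1.42.0, its size factors in edgeR, limma-voom (limma 3.58.1) with quality weights, other filters, each library left out, the replicate number as a block, a term for libraries with over 100 Y-linked counts, those libraries left out, and, for counts of genes only, a fold over 1.5 with an unadjusted p under 0.05. Numbers of alternatives given for a single gene refer to the 17 others.

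Named were the transporters with an adjusted p under 0.05 or no overlap between genotypes, a fixed core of epithelial carriers, and the changed genes of the second list, of which 1 is not reported here. Other genes were chosen after their values were seen. Members, lists, markers and alternatives were all chosen with earlier results of these data known. Coordinates and transcript lengths are those of GENCODE vM21 (GRCm38, mm10), and promoter windows those of RefSeq (GRCm38.p6). Older symbols were matched through RefSeq synonyms.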

Additional observations from a re-analysis of the deposited data

Results flagged for a closer look

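Of 62 groups of libraries (31 named genes in each genotype), 4 held a library whose gap to the nearest other library was larger than Dixon's 95% value allows for the range of the group, where chance flags about 1 group in 20. These were *Slc1a1* in S-1 (21.4 CPM, the other S libraries having 9.33 to 9.69), *Slc25a15* in S-2 (46.8 CPM against 38.8 to 39.2), *Slc7a4* in DDKO-1 (15.3 CPM against 11.95 to 12.9) and *Smad4* in S-1 (92.7 CPM against 54.3 to 55.4).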

How the results depend on the processing

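The 14 transporters past the threshold became 9 under a minimum of 10 counts in each library (which left 9 of them tested, all past the threshold) and 9 with a term for Y-linked counts, and 7 to 20 when 1 library was left out (7 without S-3, 20 without DDKO-5). The 9 higher ones became 5 with at least 10 counts, and 6 to 14 with a library left out. The 5 lower ones became 3 with the term for Y-linked counts, 3 by a fold over 1.5 with an unadjusted p under 0.05 (*Slc1a1*, *Slc1a3* and *Slc1a2*, which was not among the 5), and 1 to 6 with a library left out (1 without S-3). The replicate numbers of the labels did not pair the libraries (correlations of -0.10 to 0.09, none highest for its own number), and as a replicate block they left 1 lower transporter (adjusted p of 0.0509 for *Slc1a1* and 0.0785 for *Slc7a4*). The 5 genes of the second list became 8 with DESeq2 and 3 to 7 with a library left out, and the 1941 of all genes 2927 with limma-voom, 1285 with the Y-linked term, 2930 in the 6 libraries whose Y-linked counts were 100 or fewer and 847 (without S-3) to 2696 (without DDKO-5) with a library left out. *Slc3a1*, *Slc7a9*, *Slc7a7*, *Slc38a1* and *Slc43a2* passed under the 17 alternatives that use the adjusted p, and *Slc38a1* (log2 fold change 0.53) was not over 1.5-fold. *Slc38a11*, which entered the test only through the DDKO libraries, was not tested under 5 of them. *Slc6a19* missed the threshold under limma-voom (adjusted p = 0.0622) and with the Y-linked term or without any 1 of the S libraries. In the 6 libraries of few Y-linked counts (the S libraries, DDKO-3 and DDKO-4) all 14 were kept. No S library had over 100 such counts, so that the fit with the Y-linked term also compares the genotypes within these 6 libraries. That fit kept 9 of the 14.

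Of the single values, 424 kept their direction and side of the threshold, 53 lost the threshold, 22 gained it and 15 changed sign. All 15 were of genes that did not pass in the main test. The log2 fold change of *Slc38a2* was 0.0127 with the replicate block, that of *Slc7a5* -0.0212 with the term for Y-linked counts and -0.0172 without the libraries that have over 100 of them, and that of *Smad4* -0.18 with limma-voom, -0.14 with the block, -0.71 with the term for Y-linked counts and -0.70 without those libraries. With a library left out, it ranged from -0.0746 to 0.0625 for *Slc1a4*, from -0.0699 to 0.0269 for *Slc38a2* and from -0.11 to 0.37 for *Smad4*. The cause was not tested. Members with few counts, such as *Slc7a15* and *Slc38a11*, had at most 23 and 26 counts in any library.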
